A study of Homo sapiens with 17 samples.

Results

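Ribosome biogenesis and nucleolar factors were followed as 43 genes of the 23368 in the count table. They were chosen by symbol, and the rule used no measured value, though earlier results of these data were known. Each has a role in ribosomal RNA (rRNA) processing, in the box C/D and H/ACA small nucleolar ribonucleoproteins (snoRNPs) or in transcription by RNA polymerase I. The RNA came from 293T (HEK293T) cells, a human embryonic kidney line, and was measured by acRIP-seq, which sequences the poly(A) RNA that an antibody against N4-acetylcytidine (ac4C), an acetylated form of cytidine, recovers. Cells of genotype WT gave 3 input, 3 anti-ac4C (IP) and 2 control IgG libraries. Cells of genotype siTARDBP, treated with siRNA against TARDBP and called siTDP43 here, gave 3 libraries of each kind, 17 in all. The labels name no control siRNA for WT cells, so transfection and any batch of cell culture cannot be told apart from the knockdown. TDP43, the protein encoded by TARDBP, is an RNA-binding protein that the study followed as a partner of NAT10, the enzyme that writes ac4C.

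Ribosomes are made in the nucleolus. RNA polymerase I transcribes a long precursor rRNA, box C/D snoRNPs methylate its riboses, H/ACA snoRNPs convert uridines to pseudouridine, and large assemblies of processing factors cut and fold it into the small and the large subunit. NAT10 also acts in this pathway, since it acetylates rRNA and is needed for its processing. The mRNAs of these factors are made by RNA polymerase II and usually carry poly(A) tails, so they are among the RNAs that an anti-ac4C pull-down of poly(A) RNA can recover.

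The 43 genes were 3 box C/D core proteins, 4 H/ACA core proteins, 2 nucleolar phosphoproteins, 16 factors of the small subunit, 13 of the large subunit, the growth regulator LYAR and 4 factors of RNA polymerase I. Each had counts in every group and passed the filter on low counts in every fit. Depth differed between the fractions: the inputs held 24542434 to 36583436 counts each, WT IP held 19615316 to 21066215 and siTDP43 IP 8610070 to 15736165, WT IgG held 9022250 to 9466855, and siTDP43 IgG, whose values are the least precise, held 3013989 to 3436811. TARDBP itself fell from 153 ± 3.86 CPM (SD, n = 3) in WT input to 102 ± 3.67 in siTDP43 input, 67.2% of its WT level (log2 change -0.57, adjusted p = 6.55e-13). Of 6 genes usual in this line, VIM, KRT8, KRT18, NEFL and NEFM were present and PAX2 was near 0 (0.21 ± 0.127 RPKM in WT input). Of 6 markers of other cell types, PTPRC (leukocytes), PECAM1 (endothelium) and ACTC1 (muscle) had at most 2 counts in any library and ALB (hepatocytes) at most 26. COL1A1 (fibroblasts) was at 1.23 ± 0.119 RPKM in WT input and 0.287 ± 0.0792 in siTDP43 input. HBB (red cells) was at 0 except in siTDP43 IP (2.30 ± 1.19 RPKM) and siTDP43 IgG (12.9 ± 2.30). Those HBB values rest on at most 22 and 24 counts in a library. The study added mouse β-globin RNA before pull-down, and its part in these counts was not tested.

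The motifs that bear on these RNAs were read from their exons in hg19. The 8-base motif UCCCAGCU, which the study related to ac4C, occurred in the exons of 6 of the 43 members, and in 6.31% of their 1000-base windows against 6.3% over all genes. The 6-base UG-rich motif UGUGCG, which TDP43 prefers, occurred in 12 members, and in 11.7% of windows against 11% over all genes. Both were searched on the RNA strand only, and they do not overlap each other. The sites shown are those of the members that passed both pull-down controls and held a motif (GAR1 and TCOF1 in WT cells, UTP3 in siTDP43 cells), and of NOL6 and RRP9, which with UTP23 were the members that held both motifs. The UTP23 sites are not printed. Capitals mark the motif and U stands for T of the genome.
GAR1, chr4:110736923-110736928, plus strand: gggugggugUGUGCGcaaggccag
TCOF1, chr5:149737378-149737383, plus strand: ggcuggcuaUGUGCGugcggcgcg
TCOF1, chr5:149755725-149755730, plus strand: ggucgccccUGUGCGagugggcac
UTP3, chr4:71554439-71554444, plus strand: gugggcagcUGUGCGagccaaggc
NOL6, chr9:33470163-33470170, minus strand: aggcauggcUCCCAGCUgggguucga
NOL6, chr9:33462654-33462661, minus strand: acugugugaUCCCAGCUcuggagcaa
NOL6, chr9:33469243-33469248, minus strand: caagaacaaUGUGCGcucugccug
RRP9, chr3:51969376-51969383, minus strand: cccgaggagUCCCAGCUugucuucua
RRP9, chr3:51968546-51968551, minus strand: cagcuccugUGUGCGgcuuuggca
Each site lies within 1 exon. RRP12 and RRS1, the other members that were higher in WT IP than in both controls, held neither motif in their exons. A match describes these letters and is not a modified or bound site.

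Levels are given as RPKM, counts divided by the TMM-scaled library size and by exon length, which allows comparison between genes. In WT input the members spanned 729 ± 9.91 RPKM (SD, n = 3) for NHP2 to 1.01 ± 0.103 for POLR1A. FBL at 433 ± 3.77 and NOP10 at 401 ± 11.3 came next, well above NOP56 at 145 ± 5.31, GNL3 at 133 ± 1.29 and BRIX1 at 132 ± 5.08. GNL3 and BRIX1 did not differ beyond their spread. At the low end UTP20, at 1.07 ± 0.029, and POLR1A did not differ beyond their spread. The mRNAs for proteins of 1 complex differed in level. Of the H/ACA core, beside NHP2, GAR1 was at 56.6 ± 1.6 and DKC1, which encodes the pseudouridine synthase, at 75.9 ± 1.26.

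The first comparison set the siTDP43 inputs against the WT inputs. Most of the members were higher after knockdown. Of 43 tested, 28 (65.1%) rose and 9 (20.9%) fell, at an adjusted p under 0.05, while over all 14036 genes tested 38.6% rose and 40.6% fell. The median log2 change was 0.69 over the members and -0.05 over all genes. Single log2 values are given ± SE and levels ± SD. Counts of the 43 genes together made up 0.515% ± 0.0015 (SD, n = 3) of all counts in WT input and 0.713% ± 0.0021 (n = 3) in siTDP43 input. Of 89 other ribosome biogenesis genes, listed apart from the members, 57 rose and 21 fell. Marker genes of the line also differed between these inputs. Their summed level over 6 genes was 562 to 577 RPKM in WT and 248 to 269 in siTDP43, with KRT8 (log2 change -2.30), VIM (-1.58), NEFM (-0.66) and KRT18 (-0.54) lower and NEFL (1.52) higher. In the pull-downs that sum was 1131 to 1304 in WT IP, 646 to 647 in WT IgG, 288 to 304 in siTDP43 IP and 238 to 255 in siTDP43 IgG. The sum over the 6 markers of other cell types was 1.15 to 1.32 in WT input, 0.203 to 0.414 in siTDP43 input, 1.99 to 2.57 in WT IP, 0.587 to 1.83 in WT IgG, 1.49 to 3.7 in siTDP43 IP and 11.5 to 15.5 in siTDP43 IgG. In siTDP43 IgG HBB alone was at 12.9 ± 2.30, from at most 24 counts in a library. The part of these markers in the members' values was not tested. In bulk RNA, more cells with an RNA and more of it in each cell cannot be told apart.

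**Figure D1:**
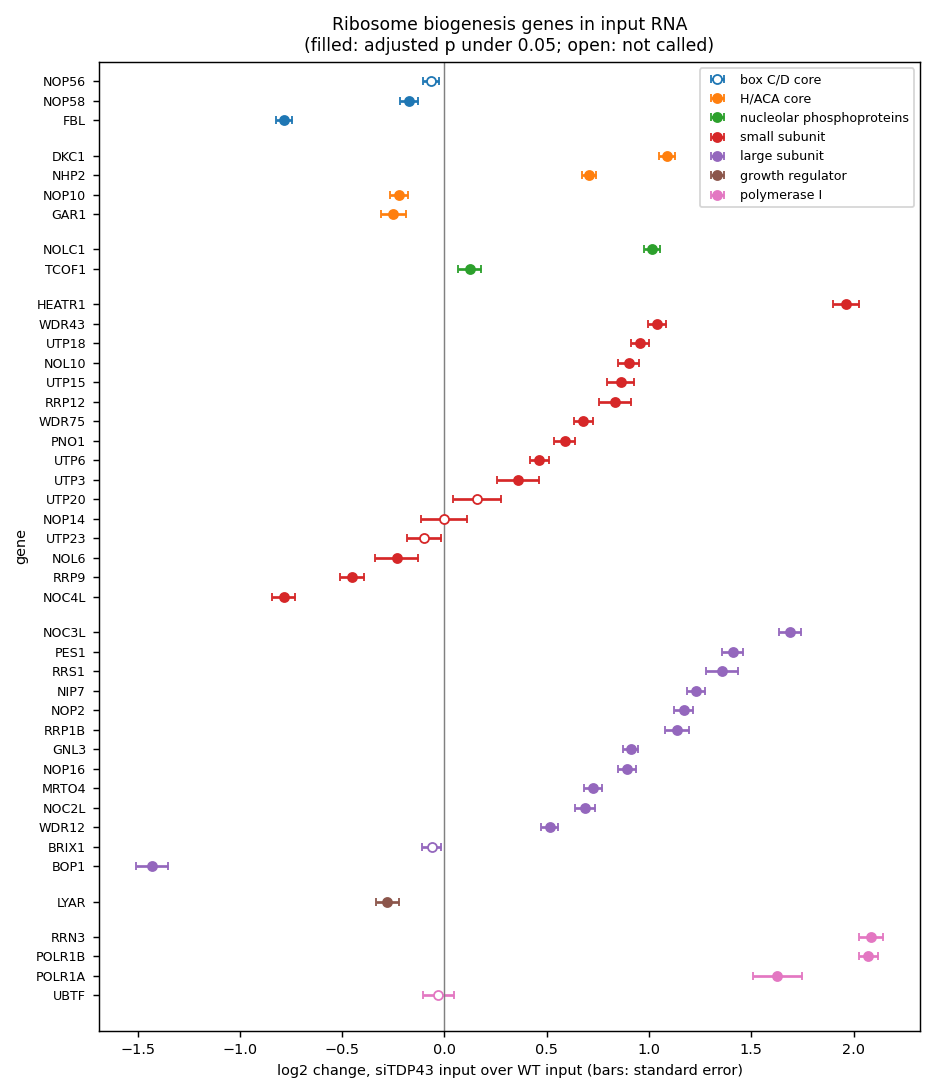
Log2 change of each gene in input RNA (horizontal axis, siTDP43 over WT, 3 libraries each, bars are the standard error), grouped by role; filled points passed an adjusted p of 0.05. Large-subunit factors and RNA polymerase I factors lie mostly to the right of 0, with BOP1 at -1.43 the lowest member and RRN3 at 2.08 the highest.

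The machinery of RNA polymerase I had the largest median of the role groups, a log2 change of 1.85 with 3 of 4 genes higher. RRN3, the initiation factor that brings the polymerase to the rRNA gene promoter, was at 6.98, 6.64 and 7.43 RPKM in the WT inputs and 30.6, 27.9 and 30.5 in the siTDP43 inputs. The groups did not overlap, and the log2 change was 2.08 ± 0.0587, adjusted p = 3.47e-24. Reads shared by RRN3 and its pseudogenes were lost where they did not align uniquely, so its level is uncertain.
POLR1B, the second largest subunit of the polymerase, was at 9.06, 8.57 and 8.56 in WT and 36.8, 37.3 and 35.5 in siTDP43, a log2 change of 2.07 ± 0.0477, adjusted p = 2.26e-26. POLR1A, its largest subunit, rose, with 1.12, 0.981 and 0.919 in WT and 3.46, 3.21 and 2.6 in siTDP43, a log2 change of 1.63 ± 0.119, adjusted p = 1.18e-13. UBTF, which binds along the active rRNA genes, was at 5.07, 5.18 and 5.03 in WT and 5.32, 4.93 and 4.65 in siTDP43. Its libraries overlapped, and its log2 change was -0.03 ± 0.0762, adjusted p = 0.727. After the trend of each library's counts with exon GC content was removed, it passed as higher, at 0.33, adjusted p = 9.39e-05. Both large subunits and RRN3 rose, at 3.09-fold or more, while the call of UBTF depended on the GC correction.

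Large-subunit factors rose in 11 of 13 cases, with a median log2 change of 0.91. NOC3L, which with NOC2L moves early large-subunit particles through the nucleolus, rose by a log2 change of 1.69 ± 0.0536, adjusted p = 7.26e-23. PES1, BOP1 and WDR12 form 1 complex, PeBoW, that acts on the large-subunit precursor, and they did not move together. PES1 was at 26.1, 26.7 and 25.8 RPKM in WT and 75.3, 68.7 and 64.1 in siTDP43 (log2 change 1.41, adjusted p = 2.06e-21). WDR12 was at 64.5, 62.9 and 65.6 in WT and 89.4, 90.9 and 94.2 in siTDP43 (log2 change 0.51, adjusted p = 1.34e-12). BOP1 went the other way, with 22.3, 25.2 and 21.1 in WT and 8.85, 8.94 and 7.56 in siTDP43 (log2 change -1.43, adjusted p = 8.61e-17), with no overlap of the libraries. It was the single member more than 2-fold lower, against 13 more than 2-fold higher (21.6% and 15.5% of all genes), and its exons had the highest GC content of the members, 65.7%. RRS1, NIP7, NOP2, RRP1B, GNL3, NOP16, MRTO4 and NOC2L rose too, by 0.69 (NOC2L) to 1.36 (RRS1). BRIX1 did not pass the test (log2 change -0.06, adjusted p = 0.219).

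Small-subunit factors rose in 10 of 16 cases and fell in 3. HEATR1, part of the assembly that links transcription with early processing, was at 2.6, 3.04 and 2.88 RPKM in WT input and 11.1, 11.6 and 10.4 in siTDP43 input, a log2 change of 1.96 ± 0.064, adjusted p = 1.44e-22. Of its exon bases 24.7% overlap LGALS8 on the other strand, and since no source used here says whether strand was used in counting, reads of these genes may be mixed. WDR43, UTP18, NOL10, UTP15, RRP12, WDR75, PNO1, UTP6 and UTP3 rose by 0.36 (UTP3) to 1.04 (WDR43), and NOL6 had a log2 change of -0.23, adjusted p = 0.0395. NOC4L, a partner of NOP14, fell, with 51, 51.7 and 49.3 in WT and 31.2, 29.5 and 27.1 in siTDP43, a log2 change of -0.79 ± 0.0573, adjusted p = 1.09e-13. RRP9, a protein of the U3 snoRNP, had a log2 change of -0.45 ± 0.0578, adjusted p = 2.53e-08. With a GC trend removed from each library the changes of NOC4L and RRP9 turned to 0.30 and 0.21, so their direction depends on that choice. NOP14 (log2 change -0.00131), UTP20 (0.16) and UTP23 (-0.10) did not pass the test.

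The snoRNP cores did not share 1 direction. In the box C/D core, FBL (fibrillarin, the methyltransferase) fell, with 437, 430.4 and 432 RPKM in WT and 258, 246 and 248 in siTDP43, a log2 change of -0.78 ± 0.0376, adjusted p = 2.92e-18. NOP58, a scaffold protein, fell slightly, with a log2 change of -0.17 ± 0.0423, adjusted p = 0.000471. NOP56, its partner, had a log2 change of -0.07 ± 0.0394, adjusted p = 0.126, and passed as higher without the GC trend, at 0.15, adjusted p = 0.000255. In the H/ACA core, DKC1 rose, with 77.2, 74.6 and 75.7 in WT and 156, 163 and 163 in siTDP43 (log2 change 1.09, adjusted p = 1.67e-21). NHP2 rose too, with 718, 735 and 735 in WT and 1189, 1161 and 1204 in siTDP43 (log2 change 0.71, adjusted p = 7.31e-18). NOP10 (log2 change -0.22, adjusted p = 3.59e-05) and GAR1 (-0.25, adjusted p = 0.000341) fell by smaller amounts. Of the nucleolar phosphoproteins, NOLC1, a chaperone of snoRNPs, rose by 1.01 on the log2 scale, and TCOF1 by 0.12, close to the threshold (adjusted p = 0.0489). LYAR, a nucleolar growth regulator, had a log2 change of -0.28, adjusted p = 4.26e-05.

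The second question was which of these mRNAs the anti-ac4C antibody enriched. In WT cells 9 members were more than 2-fold higher in IP than in input (20.9%, against 30.2% of all 14751 genes tested) and 14 were lower (32.6%, against 27.3%). Against IgG, 7 members were higher (35.2% of all genes) and 10 lower (17.8%). The median log2 difference of the members was -0.08 over input, where that of all genes was 0.01, and -0.48 over IgG, where that of all genes was 0.29. Among 89 other ribosome biogenesis genes, WT IP exceeded input in 20 and was below it in 29, and it exceeded IgG in 18 and was below it in 17. An ac4C(+) mRNA was one that passed both controls in its genotype. GAR1, TCOF1, RRP12 and RRS1 did so in WT cells, 4 of 43 members, where 15.6% of all genes did.

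**Figure D2:**
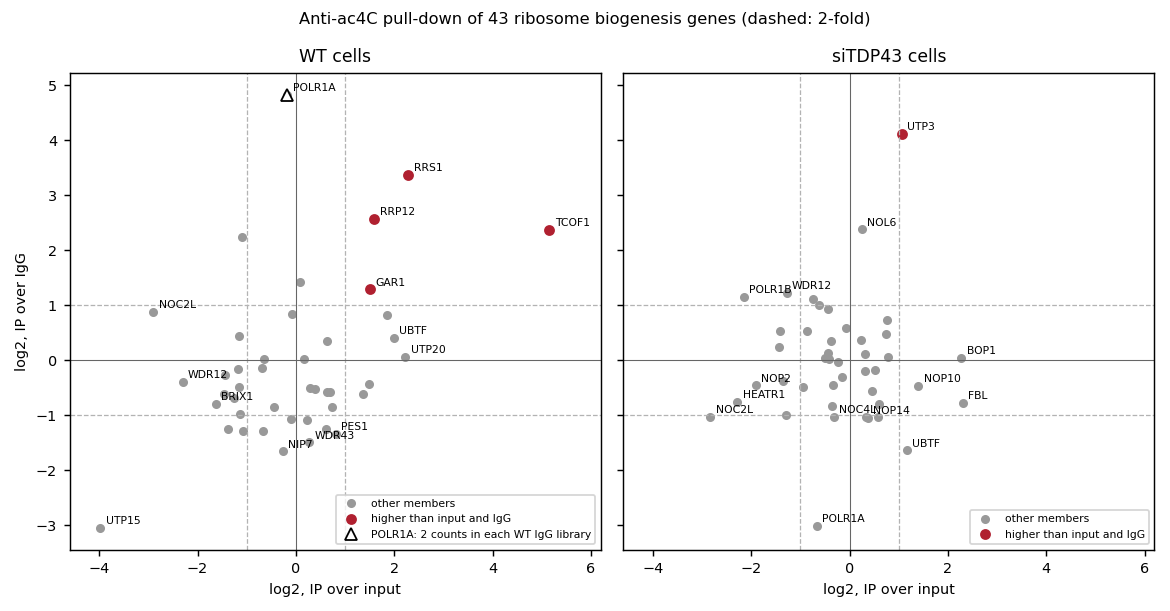
Log2 enrichment of the 43 genes in the anti-ac4C pull-down over input (horizontal axis) and over control IgG (vertical axis) in WT and siTDP43 cells; each point is 1 gene, red points passed both controls at more than 2-fold, and the open triangle is POLR1A, with 2 counts in each WT IgG library. In WT cells TCOF1, RRS1, RRP12 and GAR1 lie in the upper right, and in siTDP43 cells UTP3 alone does.

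TCOF1 encodes treacle, a phosphoprotein that joins transcription and modification of rRNA and is mutated in Treacher Collins syndrome. Its RPKM values in WT cells were 12.9, 13.2 and 12.9 in input, 437, 465 and 482 in IP, and 86.4 and 90.1 in IgG. In siTDP43 cells it was at 15.3, 14.2 and 12.7 in input, 14.5, 14.2 and 16.1 in IP, and 10.7, 11.3 and 11 in IgG. The WT IP libraries were thus far above the other 14, while the 3 siTDP43 fractions lay close together. The log2 enrichment in WT was 5.16 ± 0.0549 over input (adjusted p = 1.4e-27) and 2.37 ± 0.0565 over IgG (adjusted p = 2.04e-20), although IgG itself recovered it above input, by 2.79 ± 0.0536. In siTDP43 cells the enrichment was 0.24 and 0.37, under the 2-fold threshold.

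RRS1, a factor of the large subunit, was at 7.71, 8.04 and 7.75 in input, 35.4, 37.8 and 40.9 in IP, and 3.41 and 3.86 in IgG in WT cells. Its levels after knockdown were 19.9, 20.3 and 19.8 in input, 13.9, 13.2 and 15 in IP, and 25, 24.7 and 21.7 in IgG. In WT the IP libraries were the highest and the IgG libraries the lowest, and in siTDP43 the IP libraries were the lowest. The log2 enrichment in WT was 2.29 ± 0.0886 over input and 3.37 ± 0.135 over IgG (adjusted p = 2.51e-17 and 2.26e-16), and in siTDP43 it was -0.36 and -0.83.

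RRP12, which acts in the export and maturation of small-subunit precursors, was at 5.25, 4.8 and 4.93 in input, 15, 14.6 and 15.3 in IP, and 2.15 and 2.84 in IgG in WT cells. For siTDP43 the values were 9.8, 8.33 and 8.41 in input, 6.38, 8.33 and 7.99 in IP, and 4.4, 5.67 and 4.34 in IgG. The WT IP libraries stood above the others with no overlap, and the highest siTDP43 IP library only just reached the lowest siTDP43 input. Log2 enrichment was 1.59 ± 0.0838 over input and 2.57 ± 0.122 over IgG in WT (adjusted p = 1.03e-14 and 4.29e-15), and -0.08 and 0.58 in siTDP43. GAR1 had 54.9, 56.7 and 58.1 in input, 159, 163 and 160.4 in IP, and 69.6 and 60.01 in IgG in WT cells. GAR1 after knockdown was at 42.7, 49.7 and 50.1 in input, 72.1, 78.4 and 64.7 in IP, and 49.3, 29.4 and 44.7 in IgG. Its log2 enrichment in WT was 1.52 ± 0.0587 over input and 1.29 ± 0.0714 over IgG (adjusted p = 2.44e-17 and 7.54e-14). Without a GC trend 2 of these 4 genes, TCOF1 and RRS1, still passed both controls, and GAR1 was at 0.74 over IgG.

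**Figure D3:**
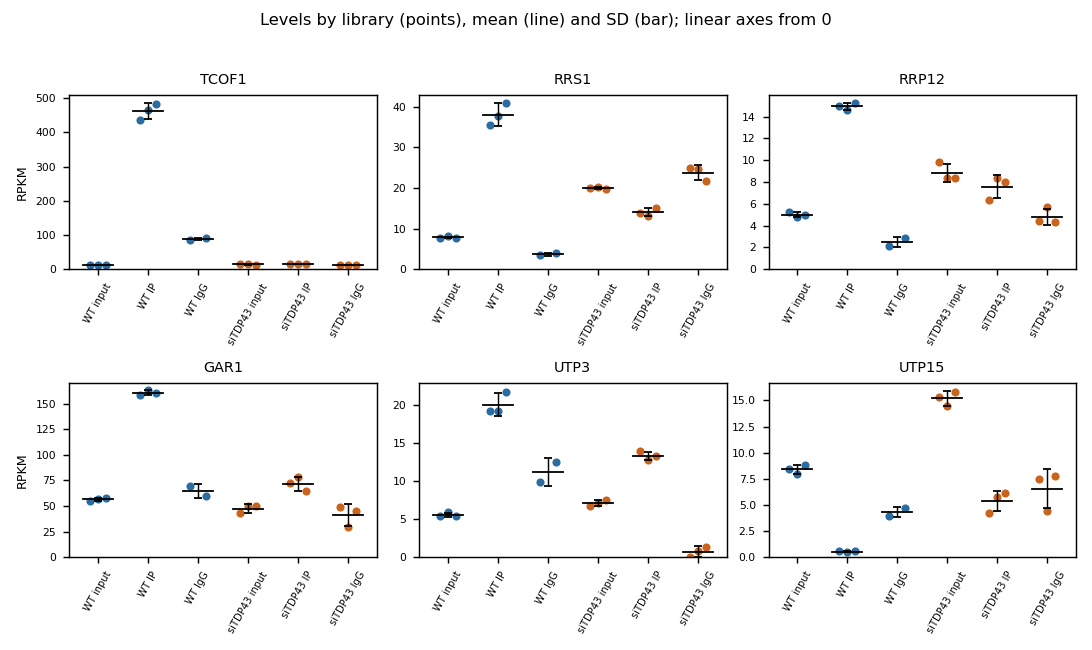
Level (RPKM, linear axes from 0) of 6 genes in each library of the 6 groups; points are libraries, the line is the mean and the bar the SD. TCOF1, RRS1, RRP12 and GAR1 peak in WT IP, UTP3 is near 0 in siTDP43 IgG, and UTP15 is lowest in WT IP.

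Several members that were above input in WT IP were above it in control IgG too. These comparisons share the input libraries, so values are given side by side. The log2 difference from input was 1.48 in WT IP and 1.90 in WT IgG for NOP14, 1.85 and 1.02 for UTP3, and 1.99 and 1.59 for UBTF. IgG over input was higher for 14 members (32.6%, against 24.4% of all genes) and lower for 9 (36.6% of all genes). The median was 0.20 over the members and -0.39 over all genes. Of the other ribosome biogenesis genes 18 were higher and 20 lower. Counts of the members made up 0.904% ± 0.0053 (n = 3) of WT IP and 0.844% ± 0.0065 (n = 2) of WT IgG, both above WT input. Single genes weighed heavily in these shares. TCOF1 held 63393, 68333 and 65225 of the 182806, 189385 and 178387 member counts in WT IP. FBL held 20330 and 18763 of the 79478 and 76577 in WT IgG. The shares therefore do not describe the members as a set. In siTDP43 they made up 0.634% ± 0.0065 of IP and 0.713% ± 0.0031 of IgG (n = 3 each).

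FBL was above input in both. Its levels were 437, 430.4 and 432 in input, 1134, 1073 and 1111 in IP, and 1692 and 1657 in IgG in WT cells. The siTDP43 values were 258, 246 and 248 in input, 1213, 1062 and 1052 in IP, and 1844, 1804 and 1748 in IgG. In both genotypes IgG exceeded IP and IP exceeded input in every library. The log2 difference of IP over input was 1.36 ± 0.044 in WT and 2.30 ± 0.058 in siTDP43, that of IP over IgG -0.62 and -0.77, and that of IgG over input 1.98 and 3.07. UTP20, a large scaffold protein of the small-subunit processome, was at 1.1, 1.05 and 1.06 in input, 5.05, 5.04 and 4.87 in IP, and 4.47 and 4.94 in IgG in WT cells. UTP20 after knockdown was at 1.25, 1.08 and 1.24 in input, 1.61, 1.07 and 1.27 in IP, and 0.896, 1.26 and 2.13 in IgG. In WT its IP and IgG libraries overlapped, with a log2 difference of 0.07 (adjusted p = 0.546), and both were above input, by 2.23 and 2.16. PES1 was at 26.1, 26.7 and 25.8 in input, 45.9, 45.5 and 46 in IP, and 111 and 117 in IgG in WT cells. PES1 after knockdown was at 75.3, 68.7 and 64.1 in input, 81.9, 81.7 and 73 in IP, and 148, 157 and 153 in IgG, with IgG the highest fraction in each genotype. Its log2 difference of IgG over input was 2.15 in WT and 1.37 in siTDP43.

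Other members were poorly recovered by the pull-down. UTP15, of the same early small-subunit assembly as HEATR1, was at 8.47, 7.92 and 8.83 in input, 0.543, 0.491 and 0.558 in IP, and 3.98 and 4.67 in IgG in WT cells. Its siTDP43 levels were 15.3, 14.5 and 15.8 in input, 4.27, 5.71 and 6.17 in IP, and 7.43, 4.43 and 7.79 in IgG. WT IP was the lowest group by far, with a log2 difference of -3.98 ± 0.141 from input and -3.04 ± 0.171 from IgG (adjusted p = 4.36e-18 and 1.01e-13). In siTDP43 IP and IgG overlapped.
NOC2L was at 36.5, 35.5 and 35.1 in input, 4.27, 5.23 and 4.73 in IP, and 2.08 and 3.01 in IgG in WT cells. NOC2L after knockdown was at 61.8, 54.1 and 55.6 in input, 8.7, 7.2 and 5.38 in IP, and 15.5, 15.9 and 10.5 in IgG. Input was the highest fraction in both, and the log2 difference of IP from input was -2.90 in WT and -2.84 in siTDP43. Its exons overlap SAMD11 on the other strand over 13.5% of their length. WDR12 was at 64.5, 62.9 and 65.6 in input, 13, 13.1 and 12.7 in IP, and 19.4 and 13.9 in IgG in WT cells. WDR12 after knockdown was at 89.4, 90.9 and 94.2 in input, 31.8, 34.5 and 35 in IP, and 15.4, 9.93 and 15.6 in IgG, with log2 differences of IP over input of -2.31 and -1.28. BRIX1 was lower in IP than in input in both genotypes as well (-1.62 and -1.43).

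Low recovery over input did not always go with low recovery over IgG. NOP16, a large-subunit factor, was at 112, 107 and 107 in input, 54.2, 46.9 and 50.8 in IP, and 12 and 9.19 in IgG in WT cells. NOP16 after knockdown was at 195, 199 and 209 in input, 137, 149 and 143 in IP, and 187, 188 and 183 in IgG. WT IgG was the lowest of its groups, so that WT IP was lower than input, at -1.09 ± 0.0712, and higher than IgG, at 2.23 ± 0.115, on the log2 scale. The difference of IgG from input was -3.33. NIP7, which takes part in pre-rRNA processing, showed the opposite order in WT. It was at 32.6, 31.5 and 31.4 in input, 24.6, 26.3 and 28.1 in IP, and 83.4 and 79.5 in IgG in WT cells. NIP7 after knockdown was at 71.4, 74.9 and 76.7 in input, 50.4, 51.8 and 45.6 in IP, and 25.3, 24.3 and 23.9 in IgG. IgG was its highest WT fraction and its lowest siTDP43 fraction, and the log2 difference of IP over IgG was -1.65 in WT (adjusted p = 4.17e-16) and 0.93 in siTDP43, the latter under the 2-fold threshold. The 10 members below IgG in WT were NOP56, NOL10, UTP15, WDR43, WDR75, HEATR1, NOC3L, PES1, NIP7 and LYAR, with log2 differences of -1.06 (NOP56) for the least and -3.04 (UTP15) for the most, and WDR43 at -1.49. That of NOP56 was -0.97 without WT IgG replicate 2.

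POLR1A rested on few counts in WT IgG, 2 in each library. Its levels were 1.12, 0.981 and 0.919 in input, 0.971, 0.818 and 0.861 in IP, and 0.0292 and 0.031 in IgG in WT cells. The levels after knockdown were 3.46, 3.21 and 2.6 in input, 1.75, 1.57 and 1.93 in IP, and 11, 14.3 and 14.8 in IgG. Input and IP overlapped in WT, while IgG was far below them in WT and far above them in siTDP43. The ratio of WT IP to WT IgG, from 418 and 4 counts, was 29.4, with an exact 95% interval of 11.4 to 108. The interval covers counting error only and takes each count as independent. It is too narrow if both mates of a read pair were counted. In siTDP43 the log2 difference of IP over IgG was -3.01 ± 0.167 (adjusted p = 2.64e-12) and that of IgG over input 2.34 ± 0.151.
UBTF was at 5.07, 5.18 and 5.03 in input, 20.6, 19.6 and 20.2 in IP, and 15.6 and 14.5 in IgG in WT cells. UBTF after knockdown was at 5.32, 4.93 and 4.65 in input, 9.19, 9.64 and 11.2 in IP, and 29.8, 30.9 and 27.8 in IgG. In WT the IP libraries were highest, by 1.99 over input and 0.40 over IgG, and in siTDP43 the IgG libraries were, with IP at -1.64 against IgG (adjusted p = 3.62e-11).
POLR1B was at 9.06, 8.57 and 8.56 in input, 3.21, 3.42 and 2.95 in IP, and 4.19 and 3.39 in IgG in WT cells. POLR1B after knockdown was at 36.8, 37.3 and 35.5 in input, 7.57, 6.67 and 7.88 in IP, and 2.71, 3.44 and 3.29 in IgG, with input above the pull-down fractions in both. For RRN3 the log2 difference of siTDP43 IP over input was -0.87, under the 2-fold threshold. For POLR1B the log2 difference of IP over input was -1.44 in WT and -2.16 in siTDP43.

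**Figure D4:**
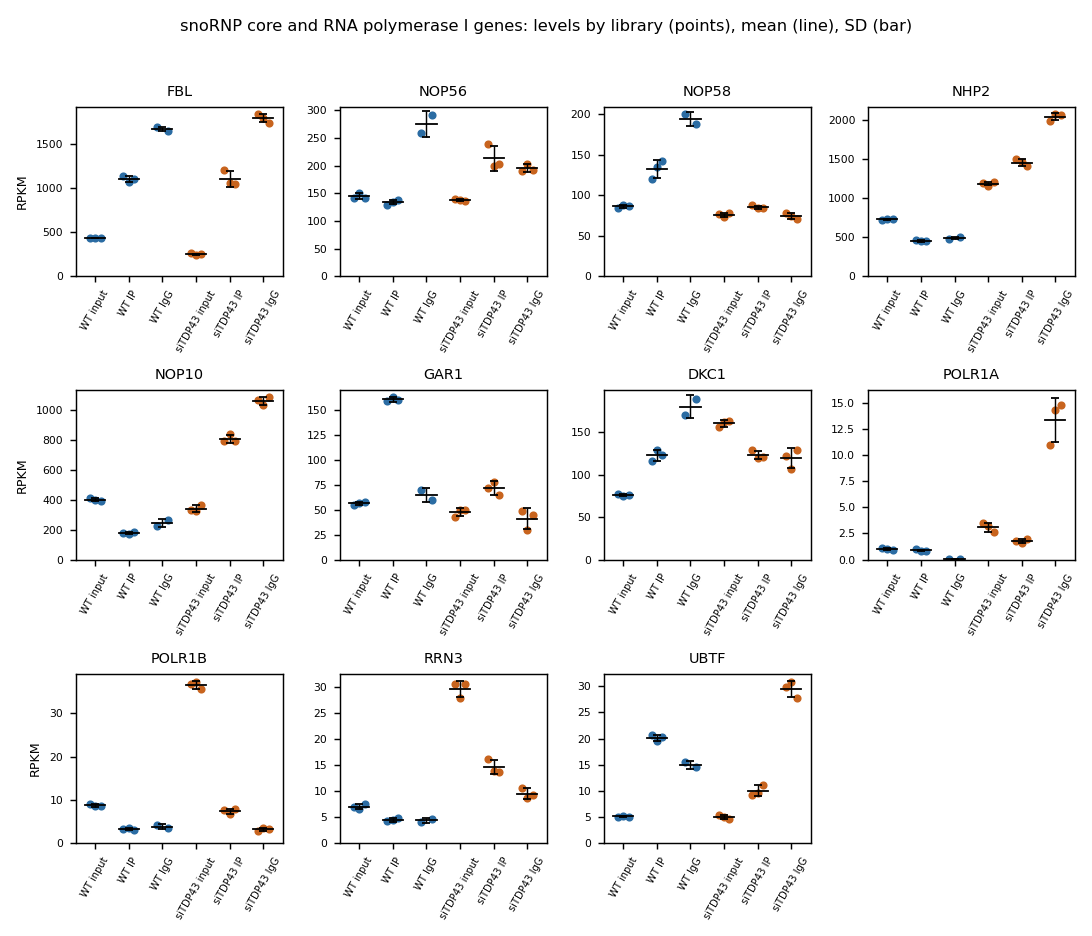
Level (RPKM, linear axes from 0) of the box C/D, H/ACA and RNA polymerase I genes in each library; points are libraries, the line is the mean and the bar the SD. FBL rises from input to IP to IgG in both genotypes, NOP10 and NHP2 do so after knockdown, and POLR1B and RRN3 are highest in siTDP43 input.

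After knockdown the pull-down was described the same way. In siTDP43 cells 5 members were higher in IP than in input (26.8% of all 12746 genes tested) and 9 lower (25.4%), and 5 were higher (34%) and 7 lower (15%) than IgG. IgG over input was higher for 10 members (24.7%) and lower for 13 (41%). The members' median log2 difference was -0.33 over input (all genes -0.09), -0.03 over IgG (all genes 0.33) and -0.20 for IgG over input (all genes -0.58). Among the other ribosome biogenesis genes, siTDP43 IP exceeded input in 15 and was below it in 22, exceeded IgG in 11 and was below it in 6, while IgG exceeded input in 14 and was below it in 25. The members higher than input were FBL, NOP10, UTP3, BOP1 and UBTF, and with total count scaling 3 passed. The 7 members lower than IgG became 2 with total count scaling or with all 17 libraries in 1 fit, and 3 without IP replicate 3.

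UTP3, a processome protein bound to the U3 snoRNP, was the 1 member of 43 that passed both controls in siTDP43 cells, where 10.3% of all genes did. It was at 5.34, 5.89 and 5.42 in input, 19.1, 19.2 and 21.7 in IP, and 9.82 and 12.4 in IgG in WT cells. In siTDP43 cells its levels were 6.72, 7.09 and 7.51 in input, 13.9, 12.8 and 13.2 in IP, and 0, 0.781 and 1.37 in IgG, and the IgG libraries held 0, 4 and 8 counts. IP was above both other fractions in each genotype. The log2 difference over input, 1.06 ± 0.192, was just past 2-fold, and that over IgG, 4.12 ± 0.375, rested on those few counts. With DESeq2 or its size factors, total count scaling or 1 fit of all libraries, no member passed both controls.
NOP10, the smallest H/ACA protein, was at 413, 399 and 391 in input, 181, 172 and 184 in IP, and 226 and 267 in IgG in WT cells. Its siTDP43 levels were 334, 326 and 367 in input, 796, 842 and 794 in IP, and 1066, 1036 and 1087 in IgG. Its order turned, with input highest in WT and lowest in siTDP43, and IP over input was -1.16 ± 0.0597 in WT and 1.40 ± 0.0644 in siTDP43 (adjusted p = 6.57e-15 and 9.38e-15). IgG over input was -0.68 in WT and 1.86 in siTDP43.
BOP1 was at 22.3, 25.2 and 21.1 in input, 40.2, 33.7 and 32.2 in IP, and 28.7 and 26.3 in IgG in WT cells. BOP1 after knockdown was at 8.85, 8.94 and 7.56 in input, 44.2, 36.5 and 29.1 in IP, and 41, 31.5 and 29.1 in IgG. Here IP and IgG overlapped in siTDP43, and both were above input, by 2.27 and 2.23.

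NOL6, a processome protein with 2 UCCCAGCU sites and 1 UGUGCG site, was at 3.83, 3.41 and 3.07 in input, 3.58, 3.38 and 3.85 in IP, and 1.28 and 1.36 in IgG in WT cells. NOL6 after knockdown was at 2.84, 3.15 and 2.74 in input, 3.35, 3.97 and 1.93 in IP, and 0.605, 0.5 and 0.587 in IgG. IgG was the lowest fraction in both, and it was the single member higher in IP than in IgG in both genotypes, by 1.43 ± 0.171 and 2.38 ± 0.359, with IP close to input. HEATR1 was at 2.6, 3.04 and 2.88 in input, 1.2, 1.06 and 1.01 in IP, and 2.51 and 2.62 in IgG in WT cells. HEATR1 after knockdown was at 11.1, 11.6 and 10.4 in input, 2.3, 2.14 and 1.59 in IP, and 3.42, 2.58 and 3.69 in IgG, and the log2 difference of IP from input was -1.37 in WT and -2.29 in siTDP43. NOC4L was at 51, 51.7 and 49.3 in input, 35.8, 36.3 and 39.1 in IP, and 63.7 and 68.2 in IgG in WT cells. NOC4L after knockdown was at 31.2, 29.5 and 27.1 in input, 21.4, 23.6 and 17.6 in IP, and 43, 38.2 and 40.8 in IgG, with IP against IgG at -0.85 and -1.03. That of NOP14 was -1.05 in siTDP43. Besides UTP3 and NOL6, the members above IgG in siTDP43 were WDR12 (1.22), POLR1B (1.15) and PNO1 (1.11). NOP2, an rRNA methyltransferase, had IP over input at -1.16 and -1.90. In the siTDP43 IgG libraries POLR1B was the lowest relative to input (-3.31), before UTP3 (-3.06), WDR12 (-2.51) and NOL6 (-2.13).

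The remaining snoRNP core genes did not pass 2-fold over both controls in either genotype. NOP56 had log2 differences of IP over input of -0.11 in WT and 0.79 in siTDP43, and of IP over IgG of -1.06 and 0.05. For NOP58 they were 0.63 and 0.32 over input and -0.57 and 0.12 over IgG. DKC1 had 0.70 and -0.23 over input, and -0.57 and -0.03 over IgG. NHP2 had -0.69 in WT and 0.45 in siTDP43 over input, neither past 2-fold.

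The last comparison tested whether enrichment itself differed between the genotypes, in 1 fit of all 17 libraries. Over input it was lower after knockdown for 25 members (58.1%, against 36.3% of all 15165 genes tested) and higher for 12 (27.9%, against 31.5%). Over IgG it was lower for 11 (25.9% of all genes) and higher for 22 (34.9%). In either direction the test called 67.8% of all genes over input and 60.8% over IgG. The median log2 change was -0.46 over input, where that of all genes was -0.19, and 0.35 over IgG, where that of all genes was 0.24. Among the other ribosome biogenesis genes enrichment over input rose for 34 and fell for 35, and enrichment over IgG rose for 37 and fell for 36. The members' direction depended on the control. Both tests share the 6 IP libraries, and the one over input shares the inputs with the first comparison, so values are given side by side.

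**Figure D5:**
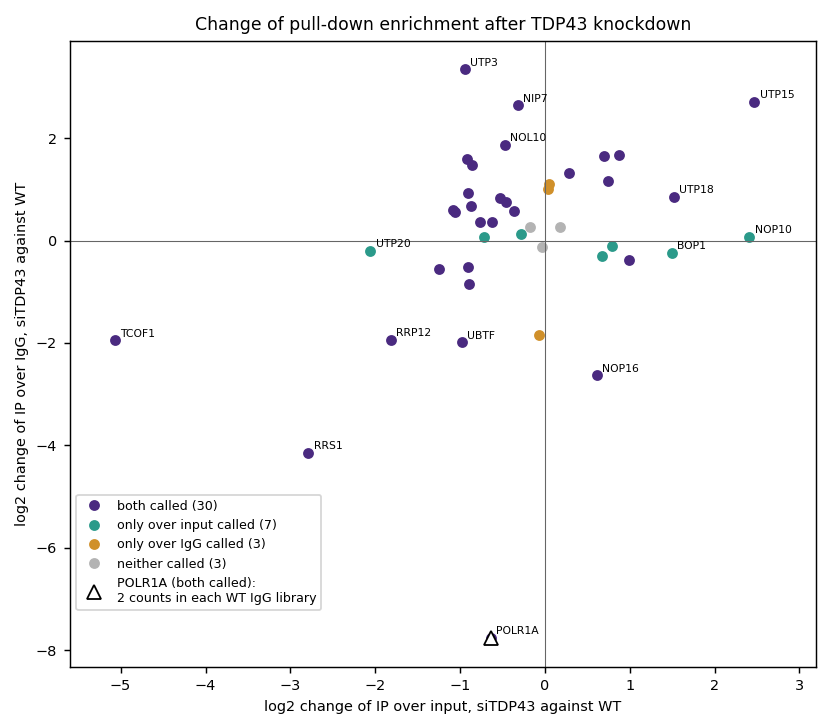
Change after TDP43 knockdown of log2 IP over input (horizontal axis) and of log2 IP over IgG (vertical axis) for each of the 43 genes, coloured by which of the tests passed an adjusted p of 0.05. TCOF1, RRS1 and RRP12 lie at the lower left, UTP15 and UTP18 at the upper right, and POLR1A, at the bottom, rests on 2 counts in each WT IgG library.

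Members lower over input and lower over IgG were GAR1, TCOF1, NOP14, RRP12, NOP2, RRS1, POLR1A and UBTF. TCOF1 changed by -5.07 ± 0.0928 over input (adjusted p = 6.87e-33) and -1.95 ± 0.111 over IgG (adjusted p = 1.02e-17). RRS1 changed by -2.79 ± 0.154 and -4.15 ± 0.208, and RRP12 by -1.82 ± 0.162 and -1.93 ± 0.23. GAR1 changed by -0.91 and -0.52, the latter with an adjusted p of 0.00583 that was lost without siTDP43 IgG replicate 1, where the value was -0.37. These 4 were the ac4C(+) members of WT, singled out for high WT values, so a lower value in the other genotype is no independent result. UBTF changed by -0.98 and -1.99. UTP20 changed by -2.06 ± 0.22 over input and by -0.20 over IgG, where it did not pass the test (adjusted p = 0.626).

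Members higher over input and higher over IgG were NOP56, UTP15, UTP18, PNO1, WDR12 and GNL3. UTP15 changed by 2.47 ± 0.225 and 2.71 ± 0.272 (adjusted p = 3.97e-12 and 3.89e-11), and UTP18, also of the processome, by 1.52 ± 0.1 and 0.86 ± 0.111. NOP10 changed by 2.41 ± 0.0919 over input (adjusted p = 2.83e-23) and by 0.07 over IgG (adjusted p = 0.624), and BOP1 by 1.49 ± 0.165 and -0.24. NIP7, NOL10 and UTP3 were lower over input and higher over IgG: -0.32 and 2.64 for NIP7, -0.47 and 1.86 for NOL10, and -0.94 and 3.35 for UTP3, whose value over IgG rests on the 12 counts of siTDP43 IgG. NOP16 changed by 0.61 over input and -2.63 over IgG.

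By role, the 4 RNA polymerase I genes were lower over input, at -0.64 for POLR1A, -0.86 for POLR1B, -0.37 for RRN3 and -0.98 for UBTF. Over IgG POLR1B (1.48) and RRN3 (0.58) were higher. Without a GC trend POLR1A over input turned to 0.16 and RRN3 over IgG to -0.36. Over input RRN3 was then at -0.03 and UBTF at -0.12, and POLR1A, RRN3 and UBTF no longer passed the test. POLR1A over input also lost its call without siTDP43 input replicate 1 (-0.55). RRN3 over input also lost its call without WT input replicate 2 (-0.34), WT IP replicate 3 (-0.31), siTDP43 input replicate 1 (-0.35), siTDP43 IP replicate 2 (-0.33) or siTDP43 IP replicate 3 (-0.32), and over IgG without WT IgG replicate 2 (0.47) and with DESeq2 (0.36). In the box C/D core FBL (0.79) and NOP56 (0.75) were higher over input and NOP58 lower (-0.46), while over IgG NOP56 (1.17) and NOP58 (0.74) were higher and FBL did not pass (-0.10, adjusted p = 0.311). In the H/ACA core NHP2 and NOP10 were higher over input and GAR1 and DKC1 lower. For NHP2 the change was 0.99 over input and -0.37 over IgG, and for DKC1 -1.08 and 0.60. With the GC trend removed NHP2 (-0.11) and DKC1 (0.20) over IgG and NOP58 over input (-0.15) no longer passed the test.

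GC content of the exons went with some of these differences. It ran from 37% in UTP23 to 65.7% in BOP1 over the members, with a median of 47.4%, against 49.1% over genes tested in the inputs. Spearman's rho between GC content and the log2 value was taken over the 43 genes, which are not independent and share their libraries. It was -0.25 for the inputs, 0.32 for WT IP over input and 0.48 for WT IP over IgG. For siTDP43 IP over input it was 0.43, for the change over IgG -0.59 and for the change over input 0.03. Over all genes rho was -0.32, 0.36, 0.19, 0.27, -0.18 and -0.10, in the same order. Removing a GC trend moved the count over input after knockdown to 19 higher and 14 lower, and the members lower than IgG from 10 to 23 in WT and from 7 to 24 in siTDP43. In siTDP43 it moved the members higher in IgG than in input from 10 to 24. The members' median turned to 0.29 for siTDP43 IP over input, to 0.07 for the change over input and to -0.05 for the change over IgG, while that of the inputs stayed at 0.66. The medians over all genes were then 0.29, 0.37, 0.06 and 0.10, in the same order. In the change over input 17 members lay above the median of all genes, against 18 before the removal. With total count scaling the members' median turned to 0.02 for WT IP over input and to 0.18 for siTDP43 IP over IgG. Those of all genes were then 0.12 and 0.54. The GC trend was not centred in each library, so its removal also changed the scaling. The part of GC content in each result was not tested.

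Promoters of ribosome biogenesis genes are known to hold the E-box CACGTG, the site to which MYC and its partner MAX bind. RefSeq promoter sequences (GRCh38.p14, 250 bases before to 50 after the start) were matched for 34 of the 43 genes, as 40 promoters. NOP58, NOLC1, TCOF1, NOL10, UTP23, RRP12, BOP1, RRP1B and RRS1 had no entry. The motif, which reads the same on both strands, occurred in 16 of the 40 promoters (40%), against 7.26% of 35116 promoters in the table and 9.18% of 14524 promoters of genes tested in the inputs. Counted by gene it occurred in 16 of the 34 members (47.1%), against 12.7% of 9776 genes tested in the inputs. Of its 18 sites, 15 began within 50 bases of the start. Sites of a part of these genes are shown, with the motif in capitals and its first base counted from the transcription start. Those of GNL3, LYAR, MRTO4, NOC3L, NOP14, NOP2, PNO1 and WDR43 are not printed. Of these genes LYAR fell in siTDP43 input, NOP14 did not pass the test and the others rose.
FBL, at 7: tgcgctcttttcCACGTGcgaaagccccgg
GAR1, at 32: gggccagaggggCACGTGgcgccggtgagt
NOP10, at -170: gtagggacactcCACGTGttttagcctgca
NOP10, at -11: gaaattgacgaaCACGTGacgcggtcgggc
NOL6, at 14: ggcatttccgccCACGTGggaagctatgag
PES1, at 14: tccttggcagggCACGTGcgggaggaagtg
RRP9, at -5: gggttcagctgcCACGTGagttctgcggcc
UTP18, at -89: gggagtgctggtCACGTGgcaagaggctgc
UTP18, at 5: gcagcgaggttcCACGTGagcgcctgcgtt
UTP20, at -10: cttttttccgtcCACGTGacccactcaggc
Of the 16 genes with the motif 8 rose and 6 fell in siTDP43 input, with a median log2 change of 0.37, and of the 18 without it 14 rose and 1 fell, with a median of 0.70. The motif was chosen after these values were seen, and the difference was not tested. A match says nothing of binding in these cells.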

How the data were processed

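Raw counts per gene were deposited by the authors for 17 libraries. Per the study's methods, poly(A) RNA was selected with oligo(dT) beads, pulled down with anti-ac4C or rabbit IgG, made into SMART-seq2 libraries and aligned to hg19, and uniquely aligned reads were counted. The submitters' processing notes name Trim Galore 0.6.7, STAR 2.7.10a and featureCounts 2.0.2. The annotation release, strand setting and handling of mates are not given in the sources used here; 81.3 to 95.9% of counts of 1 to 20 were even, as when mates are counted 1 by 1. Reads carry no molecular identifiers. RPKM and CPM were computed here from the deposited counts and exon lengths. The ac4C-containing β-globin RNA that the study added before pull-down was not analysed here, so values are relative to each library's total.

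Groups came from the labels, which do not say that replicates were separate cultures, so p-values measure the spread between these libraries. No library duplicated another (chi-square per degree of freedom 3.26 to 9.43). Tests used the two-sided quasi-likelihood F test of edgeR 4.0.16 in R 4.3.3, with TMM scaling, filterByExpr at a minimum count of 10 and Benjamini-Hochberg adjustment over all genes tested, fitted to 6 libraries for the inputs, 8 for WT, 9 for siTDP43 and 17 for the change of enrichment. A call needed an adjusted p under 0.05 and, within a genotype, a fold change above 2. The fits were tested on simulated data. Alternatives were DESeq2 1.42.0, its size factors, total count scaling, 2 other low-count filters, mate-halved counts, 1 fit of all libraries, the replicate number as a block, GC trends removed by lowess, 5-fold over IgG, and leaving out each library.

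Named were the snoRNP core and RNA polymerase I genes and, in each comparison, the 4 highest and the 4 lowest called members. Other members, in lists of calls or said not to pass, were named after their values were seen. The members and lists were chosen with earlier results of these data known. Motifs were read from GRCh37 at the table's exon positions.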

Additional observations from a re-analysis of the deposited data

Results flagged for a closer look

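Enrichment differed between the genotypes for 37 of the 43 members over input and for 33 over IgG, by the test of the difference in 1 fit of all 17 libraries, which called 67.8% and 60.8% of all genes tested. In 1 member for each control the enrichment was past 2-fold in opposite directions in WT and siTDP43. NOP10 was lower than input in WT IP and higher in siTDP43 IP, a change of 2.41 on the log2 scale. POLR1A was higher than IgG in WT IP and lower in siTDP43 IP, a fitted change of -7.76 that rests on 2 counts in each WT IgG library and is no bound.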

How the results depend on the processing

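Of the 20 counts of members, 7 stayed within 1.5 times of their value under every alternative run. Of 150 log2 values of single members 11 were counted as reversed, each with the GC trend removed. A called value was reversed if its sign changed, and an uncalled one if it passed with the other sign. Other sign changes of uncalled values were not counted. Removal of the GC trend moved the median over all genes too, for example from -0.58 to 0.70 for siTDP43 IgG over input. Total count scaling moved that median to -1.13. The GC trend was not centred in each library, and TMM scaling was applied as well. Its removal therefore changed the scaling of each library too. Values with it removed do not separate GC content from scaling. With the GC trend removed, the members lower in WT IP than IgG were 23, lower in WT IgG than input 5, higher and lower in siTDP43 IP than input 10 and 5, higher and lower in siTDP43 IP than IgG 2 and 24, higher and lower in siTDP43 IgG than input 24 and 4, changed over input 19 higher and 14 lower, lower over IgG 17, and ac4C(+) in WT 2. It turned the log2 values of NOC4L to 0.30, RRP9 to 0.21, NOP56 to 0.15 and UBTF to 0.33 in the inputs, of NOP58 to -1.05 in siTDP43 IP over IgG, of DKC1 to 1.27 and RRN3 to 0.51 in siTDP43 IgG over input, of POLR1A to 0.16 in the change over input, and of NOP58 to -0.26, NOP10 to -0.25 and RRN3 to -0.36 in the change over IgG. With total count scaling 3 members were higher in siTDP43 IP than input, 2 lower than IgG and 6 higher in IgG than input. With 1 fit of all libraries 2 were lower in siTDP43 IP than IgG. No member was ac4C(+) in siTDP43 with DESeq2 size factors, total count scaling, the DESeq2 Wald test or 1 fit of all libraries (0 in each, against 1). Leaving out 1 library at a time gave 3 to 7 members lower in siTDP43 IP than IgG, the 3 without siTDP43 IP replicate 3, and 4 to 5 ac4C(+) members in WT.

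No pairing of libraries by replicate number was visible. Correlations of residuals were -0.021 to 0.027 for the same number and -0.035 to 0.039 for other numbers. Such values do not tell whether libraries of the same number came from a shared preparation. With the replicate number as a block, 28 members rose and 9 fell in the inputs, and 20 rather than 22 were higher in the change over IgG, with every other count of members as without it. Depth limited the siTDP43 IgG libraries most.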
